A study of Mus musculus with 24 samples.

Results

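Apoptosis, necroptosis and pyroptosis are routes by which a cell carries out its own death. The genes described here were chosen by symbol: the caspases, the BCL-2 family, the inhibitor of apoptosis proteins (IAPs) and their partners, the adaptors of the death receptors, the RIP kinases with MLKL, and the gasdermins. Of 14014 genes listed in all 4 tables of the study, 34 met that rule, in 11 roles. A further 4 symbols, Bcl2a1b, Casp1, Casp12 and Fas, were listed in some of the tables and are given apart. Necroptosis and pyroptosis were thinly covered. Of the RIP kinases and gasdermins only Ripk1, Ripk2 and Gsdme were among the 34, while Ripk3, Mlkl, Gsdmd and Casp4 were listed in no table and are not analysed here. The set is therefore mainly one of apoptosis genes.

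Total RNA from mouse cortex was sequenced after ribosomal RNA depletion in 24 libraries, 6 in each of 4 groups, that is a CL and a PI group of WT and of KO animals. All animals were males aged 3 to 4 months, and the strain given for both genotypes is C57BL/6N-Cdr1asem1Nikr. All underwent transient middle cerebral artery occlusion (tMCAo), a filament model of ischemic stroke, for 1 h, with 1 day of reperfusion. WT is wild type, and KO lacks ciRS-7 (Cdr1as), a circular RNA of neurons with many binding sites for miR-7. The labels do not spell out CL and PI. Each animal gave a CL and a PI library, so that all 4 groups come from operated animals and no group is from unoperated cortex. The study set out to compare gene expression between genotypes after stroke.

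In the intrinsic route to apoptosis, BH3-only proteins sense damage and engage the survival proteins of the BCL-2 family, which otherwise hold BAX and BAK in check. Once BAX and BAK open the outer mitochondrial membrane, cytochrome c joins APAF1 in the apoptosome, which activates caspase-9 and then the caspases downstream. In the extrinsic route, death receptors recruit FADD, TRADD and RIPK1 to activate caspase-8, with CFLAR as a brake, and RIPK1 can pass the signal on to necroptosis through RIPK3 and MLKL. Ischemic brain tissue is known for activity of all of these routes, and BCL-2, MCL-1 and BCL-xL are long studied as survival factors of neurons.

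Because ciRS-7 is known for its binding of miR-7, the match of the members to miR-7 is shown first. The mature sequences are from RefSeq (GRCm38.p6), with the seed, bases 2 to 8, in capitals. Both forms share that seed.
mmu-miR-7a-5p: uGGAAGACuagugauuuuguugu
mmu-miR-7b-5p: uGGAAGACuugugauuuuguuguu
The 3′ UTRs of the members in GENCODE M21 (GRCm38) were searched on the transcript strand for the seed match GTCTTCC (7mer-m8), for TCTTCCA (7mer-A1) and for both together, GTCTTCCA (8mer), each position being counted once in the longest form. At least 1 site was found in 15 of 34 members (44.1%), against 29.0% of 12500 genes with a 3′ UTR in the table of PI KO and PI WT. An 8mer was found in 3 of 34 (8.82%), against 4.74% of those genes. All annotated protein-coding transcripts of a gene were searched. These shares were not matched for 3′ UTR length or number of transcripts. The 3 sites are printed with 11 flanking bases on each side and the match in capitals.
Bcl2, chr1:106542717-106542724, minus strand: aagaaagcctgGTCTTCCAtggactggaga
Bcl2l11, chr2:128159587-128159594, plus strand: gtaaagcacttGTCTTCCAcaagatgtctg
Casp9, chr4:141814427-141814434, plus strand: tttttctctgtGTCTTCCAaggtccctgcc
Bcl2 encodes the founding survival protein of its family, Bcl2l11 the BH3-only protein BIM, and Casp9 the caspase of the apoptosome. A match is a description of letters and does not show that the site is used.

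Levels came as log2 CPM, where CPM is the count of a gene scaled by the total of its library, in 4 tables of 2 groups that were scaled separately. Within each group the lower 2 and the upper 2 values of every gene were tied at the group's quartiles. The 4 inner values of a group can be solved from this but its extremes cannot. Each group below is therefore described by its inner values, except in sums of marker genes, which use the deposited values. The test was a moderated trimmed-mean test on these values, and genes with an adjusted p (Benjamini-Hochberg over all genes of the comparison) under 0.05 are termed called. SE is the standard error of a log2 fold change, with n = 6 animals per group. Depth was read from the step between low values in each table, so it is a scaled library size. It ran from 5.26 to 10.5 megareads with a median of 6.94, and 3 reads were worth 0.286 to 0.571 CPM. No member had all inner values of a group at or under that limit. The lowest inner value of a member was 0.769 CPM, for Tradd in PI KO. Libraries stood apart to differing degrees in the share of genes at the low or high extreme of their group. Among genes with a mean log2 CPM above 3, the median share was 66.8%, near what the ties alone set. CL KO replicate 6 had 91.2% and PI WT replicate 4 had 83.5%. Since the extremes enter the test only by rank, results without these libraries come from limma on the deposited values and are given with the other settings in the closing section.

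In CL WT, the level per length (CPM per kb of merged exons) was highest for several IAP and survival genes. Xiap, which blocks caspase-9 and the caspases downstream, was highest at 24.7 CPM per kb (inner values 23.7 to 26.1). Birc6, a giant IAP with ubiquitin-conjugating activity, followed at 19.4 (18.9 to 19.8). Bcl2l2 (BCL-w) stood at 14.6 CPM per kb, Birc2 (cIAP1) at 13.6, Mcl1 at 13.4 and Bcl2l1 (BCL-xL) at 10.3. The inner values of Birc2 and Mcl1 overlapped with each other, and those of Birc2 did not reach those of Bcl2l2. Among caspases, Casp2 was highest per length at 3.14 CPM per kb, while Casp8 stood at 0.575. Of the BH3-only genes Hrk was highest at 4.20 CPM per kb, and of the pore-forming genes Bok at 5.68, ahead of Bax at 2.24 and Bak1 at 1.87. Casp8ap2, named for binding caspase-8, stood at 6.64 and Bcl2l13, a BCL-2-like protein of mitochondria, at 5.70. Exons of some members overlap other genes. The strand used in counting is not stated in the sources used here, so the levels of these members are uncertain. Summed over overlapping gene entries, shared exon bases came to 42.8% of Diablo, 25.5% of Bak1, 20.5% of Bad, 17.7% of Bid, 13.3% of Bcl2l2, 12.2% of Bax, 9.01% of Ripk1 and 6.09% of Bcl2. A base shared with several entries counts once for each, so the shares of Diablo, Bak1 and Ripk1 may be too high. In bulk tissue, fewer cells of a type and less RNA per cell cannot be told apart.

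**Figure D1:**
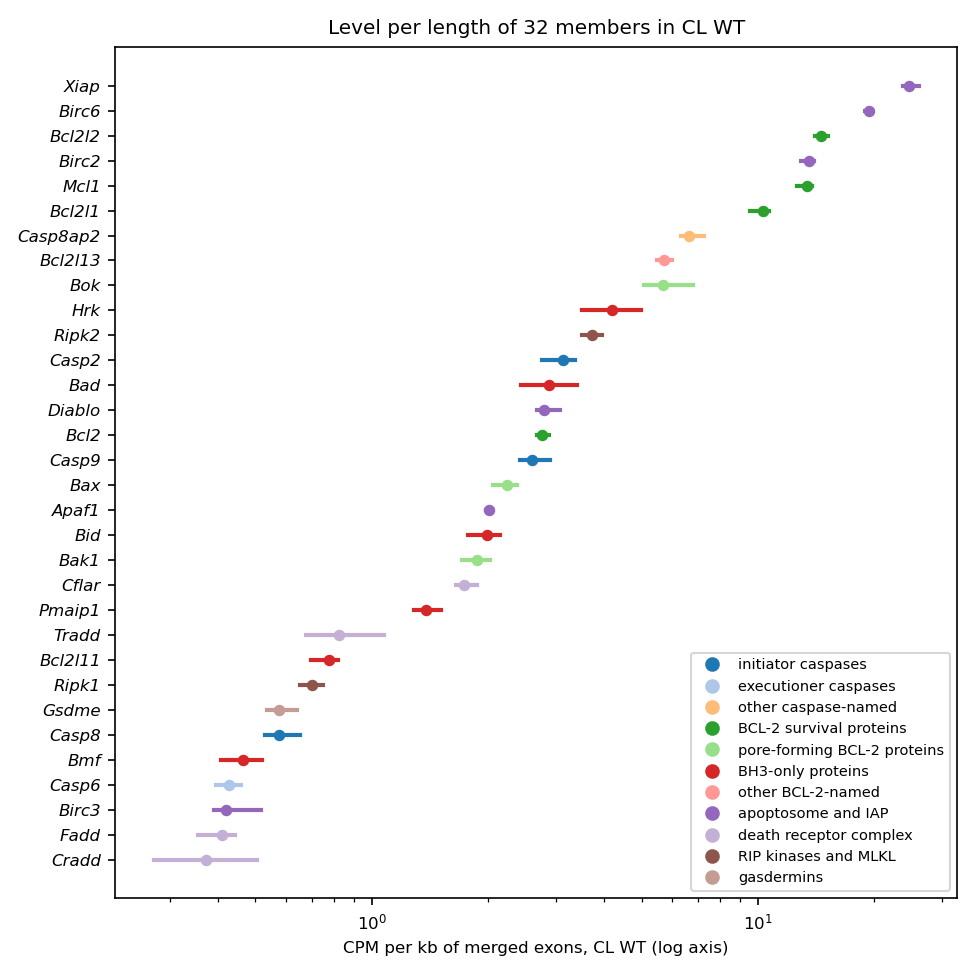
Level per length of 32 of the 34 members in CL WT, in CPM per kb of merged exons on a log axis. Points are trimmed means and bars span the 4 inner values, coloured by role; Xiap at 24.7 and Cradd at 0.372 mark the ends of those drawn.

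The comparison of PI with CL in WT asked how these genes differed between the 2 cortex samples of the same animals. Of the 34 members, 5 rose in PI (Mcl1, Pmaip1, Ripk1, Birc3 and Cflar) and 1, Bcl2, fell. Over all 14489 genes 10.6% were called, 5.20% higher and 5.40% lower, so that 6 of 34 (17.6%) stood above the background in this one count. The share with an unadjusted p under 0.05 was closer, 29.4% of members against 23.9% of all genes. Inner values of the groups did not overlap in 12 members, where 26.3% of all genes did not. The median log2 fold change was 0.16 over the members and 0.01 over all genes. Of the members 22 of 34 (64.7%) were higher, against 52.3% of all genes. In KO, 6 of 34 members (17.6%) were called and all 6 rose: Mcl1, Birc3, Cflar, Bid, Ripk1 and Pmaip1. The background there was 10.0% of 14338 genes, 5.11% higher and 4.94% lower, and 38.2% of members against 24.9% of all genes had an unadjusted p under 0.05. Inner values did not overlap in 13 members, against 26.8% of all genes, and the median log2 fold change was 0.07 against 0.00. Mcl1, Birc3, Cflar, Ripk1 and Pmaip1 were called in both genotypes, which is 83.3% of the members' calls in each, where over all genes 55.9% of the calls in WT and 59.3% of those in KO were shared. Members had the same sign in both genotypes in 24 of 34 cases (70.6%), as did 71.0% of all 14211 genes in both tables. The test takes no pairing of the libraries of 1 animal. Limma on the deposited values, whose spread is too small, called 19 members in WT (55.9%, against 44.6% of all genes) and 19 in KO (55.9%, against 46.5%). With the animal as replicate block it called 19 (55.9%, against 45.6%) and 18 (52.9%, against 47.1%).

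Among the survival genes of the BCL-2 family, Mcl1 and Bcl2 moved in opposite directions in WT. MCL-1 is a survival protein that is turned over within a short time. Mcl1 (chromosome 3, 95658788 to 95663176, all positions being those of GRCm38) had inner values of 43.2 to 47.0 CPM in CL WT (median 46.2) and 61.9 to 69.7 in PI WT (median 66.1). In KO it ran from 43.4 to 50.9 CPM in CL (median 47.0) and from 60.2 to 69.4 in PI (median 63.7). The lowest inner value of PI thus lay well above the highest of CL in both genotypes. Mcl1 rose by 0.53 on the log2 scale in WT (SE 0.07, adjusted p = 0.00048) and by 0.45 in KO (SE 0.08, adjusted p = 0.00565). Bcl2 (chromosome 1, 106538178 to 106714274) stood at 24.6 to 26.4 CPM in CL WT (median 25.2) and at 18 to 19.8 in PI WT (median 18.8). It fell by 0.43 on the log2 scale in WT (SE 0.08, adjusted p = 0.00405). In KO the same gene ran from 22.7 to 28.9 CPM in CL (median 25.8) and from 14.2 to 22.0 in PI (median 20.6). Its log2 fold change in KO was also -0.43, but with a larger error (SE 0.17, adjusted p = 0.136) it was not called. The difference between the genotypes had a 95% interval of -0.42 to 0.42. Per length, Mcl1 stood above Bcl2 throughout, at 13.4 against 2.76 CPM per kb in CL WT and 19.3 against 2.06 in PI WT. Bcl2l1 and Bcl2l2 were not called, with log2 fold changes of -0.10 to 0.00 in the 2 genotypes.

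The 3 pore-forming genes lay above CL in PI in each genotype without a call. Bax, Bok and Bak1 had log2 fold changes of 0.31 to 0.46 in WT and 0.32 to 0.48 in KO. Bax, whose product opens the mitochondrial outer membrane, stood at 3.25 to 3.75 CPM in CL WT (median 3.56) and 4.65 to 5 in PI WT (median 4.88), groups that did not overlap. Its log2 fold change was 0.46 in WT (SE 0.15, adjusted p = 0.0767) and 0.48 in KO (SE 0.22, adjusted p = 0.200). With no trend in the prior variance Bax passed in WT (adjusted p = 0.0139). Bok had the smallest p of the role in KO, with a log2 fold change of 0.41 (SE 0.17, adjusted p = 0.159).

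Of 6 BH3-only genes, Pmaip1 rose in both genotypes and Bid in KO. Pmaip1 (chromosome 18, 66458533 to 66465565) encodes NOXA, which binds MCL-1 in particular and is a known target of p53. It stood at 3.53 to 4.13 CPM in CL WT (median 3.71) and 6.09 to 8.89 in PI WT (median 6.49). In KO it ran from 2.67 to 3.36 CPM in CL (median 3.00) and from 3.86 to 11.8 in PI (median 7.81). PI KO was the widest group, but its lowest inner value still exceeded all inner values of CL KO. Pmaip1 rose by 0.88 on the log2 scale in WT (SE 0.18, adjusted p = 0.00783) and by 1.28 in KO (SE 0.38, adjusted p = 0.0495). The call in KO was lost with no trend in the prior variance (adjusted p = 0.13), with groups centred on the median gene (adjusted p = 0.0518) and with a pseudocount of 0.5 CPM (adjusted p = 0.0502). Bid (chromosome 6, 120891930 to 120916853) encodes the protein that caspase-8 cuts to link the death receptors to mitochondria. It stood at 4.73 to 5.60 CPM in CL KO (median 5.25) and 6.96 to 9.52 in PI KO (median 8.79), and rose by 0.70 (SE 0.16, adjusted p = 0.0175). In WT the values were 6.32 to 7.63 CPM in CL (median 7.21) and 6.93 to 10.3 in PI (median 8.83), with overlapping groups and a log2 fold change of 0.29 (SE 0.17, adjusted p = 0.349). Tested directly, the change in KO exceeded that in WT by 0.42 (SE 0.24, adjusted p = 0.992), which was not called. Bid shares its 3′ end with Bcl2l13 on the opposite strand, and with the strand of counting not stated, the assignment of reads there is uncertain. The other BH3-only genes, Bad, Bmf, Hrk and Bcl2l11, were not called, and their log2 fold changes ran from -0.37 to 0.08 over both genotypes.

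Among the apoptosome and IAP genes, Birc3 rose and the more abundant IAP genes were not called. Birc3 (chromosome 9, 7848699 to 7873186) encodes cIAP2, a ubiquitin ligase that acts on RIPK1 and is a textbook target of NF-kappaB. It stood at 1.96 to 2.60 CPM in CL WT (median 1.97) and 3.57 to 4.35 in PI WT (median 4.22). In KO it ran from 1.47 to 2.46 CPM in CL (median 2) and from 4.25 to 5.50 in PI (median 5.06). These levels are about 14.4 to 31.7 reads at the median depth of each group. The groups did not overlap in either genotype. Birc3 had the largest log2 fold change of any member in both, 0.95 in WT (SE 0.21, adjusted p = 0.0109) and 1.34 in KO (SE 0.26, adjusted p = 0.00614). Its closest relative Birc2, which lies beside it on chromosome 9, was not called, with log2 fold changes of -0.12 (95% interval -0.26 to 0.01) in WT and 0.02 (-0.12 to 0.15) in KO. Xiap had -0.10 (95% interval -0.22 to 0.01) in WT and -0.03 (-0.16 to 0.10) in KO, and Birc6 had -0.04 (-0.15 to 0.07) and -0.03 (-0.13 to 0.06). Per length, Birc3 remained low after its rise, at 0.815 CPM per kb in PI WT against 12.5 for Birc2. Apaf1, the scaffold of the apoptosome, is outside the rule for named genes and was picked after its values were seen, because it missed the threshold narrowly in both genotypes. It stood at 17.9 to 18.5 CPM in CL WT (median 18.4) and 20.5 to 23.2 in PI WT (median 22.2). Its log2 fold changes were 0.27 (SE 0.08, adjusted p = 0.0554) and 0.35 (SE 0.11, adjusted p = 0.0524), with no overlap in either genotype.

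None of the initiator caspases Casp2, Casp8 and Casp9 was called between PI and CL by the trimmed-mean test in either genotype. Casp8, the initiator of the extrinsic route, ran from 1.53 to 1.88 CPM in CL WT (median 1.63) and 2.08 to 3.37 in PI WT (median 2.87), about 11.8 and 19.2 reads at the median depth. The groups did not overlap, but at a log2 fold change of 0.73 (SE 0.26, adjusted p = 0.104) it was not called. In KO it had 0.68 (SE 0.33, adjusted p = 0.22), with overlapping groups. Casp2, an initiator linked to DNA damage, had the smallest p of the initiators in KO, with a log2 fold change of -0.23 (SE 0.10, adjusted p = 0.162). Protein cleavage, by which caspases are activated, is not measured by RNA.

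In the death receptor complex, Cflar rose in both genotypes. Cflar (chromosome 1, 58711508 to 58758884) encodes c-FLIP, a catalytically dead relative of caspase-8 that restrains it. It stood at 20.9 to 23.6 CPM in CL WT (median 22.0) and 26.1 to 30.1 in PI WT (median 28.5). In KO it ran from 19.1 to 22.3 CPM in CL (median 22.0) and from 27.2 to 29.7 in PI (median 28.1). Groups did not overlap in either genotype, and the gene was higher in PI by 0.36 on the log2 scale in WT (SE 0.09, adjusted p = 0.0192) and by 0.40 in KO (SE 0.09, adjusted p = 0.015). The adaptors Fadd and Cradd were not called, with log2 fold changes of -0.05 to 0.22. Tradd, the adaptor that brings RIPK1 to the TNF receptor, was the member with the widest gap between the genotypes. It ran from 1.77 to 2.30 CPM in CL KO (median 1.99) and from 0.769 to 1.20 in PI KO (median 0.907), without overlap (log2 fold change -1.10, SE 0.33, adjusted p = 0.0544). In WT it stood at 1.26 to 2.02 CPM in CL (median 1.49) and 1.52 to 2.16 in PI (median 1.65), with a log2 fold change of 0.17 (SE 0.31, adjusted p = 0.802). These levels are about 5.99 to 14.8 reads at the median depth of each group. With groups centred on the median gene, Tradd passed in KO and Pmaip1 did not, so that 5 members were called higher and 1 lower.

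Of the RIP kinases, Ripk1 rose in both genotypes. Ripk1 (chromosome 13, 34002363 to 34037147) encodes the kinase at the fork between survival signalling, apoptosis and necroptosis. It stood at 5.44 to 6.26 CPM in CL WT (median 5.90) and 8.35 to 10.4 in PI WT (median 8.91), and rose by 0.64 (SE 0.13, adjusted p = 0.00903). In KO it ran from 6.01 to 7.30 CPM in CL (median 6.82) and from 8.26 to 10.7 in PI (median 10.2), and rose by 0.54 (SE 0.15, adjusted p = 0.0374). Groups did not overlap in either genotype. The call in KO was lost with no trend in the prior variance (adjusted p = 0.0579). Ripk2, which acts downstream of the NOD receptors, had 0.19 (SE 0.10, adjusted p = 0.267) in WT and 0.36 (SE 0.13, adjusted p = 0.112) in KO. Gsdme, a gasdermin whose cut form opens pores in the cell membrane, had -0.08 (95% interval -0.37 to 0.21) in WT and -0.07 (-0.45 to 0.30) in KO.

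**Figure D2:**
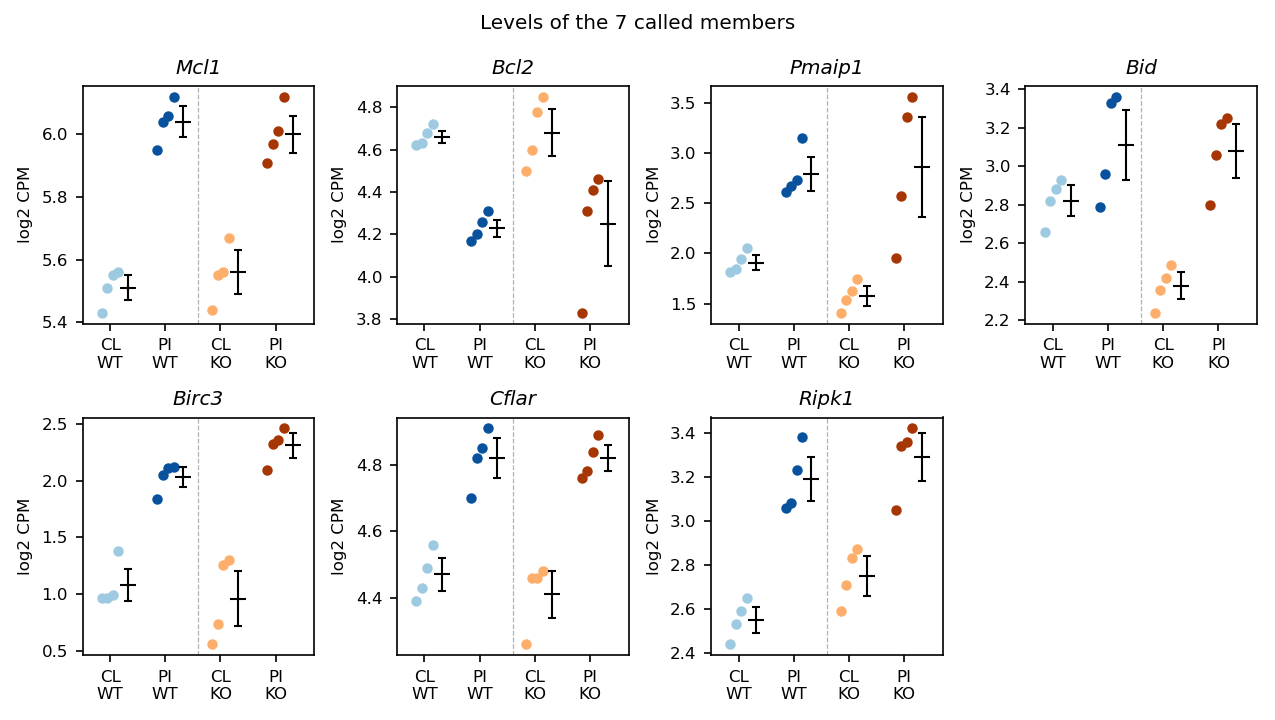
Recovered inner values (4 points per group) of the 7 members called between PI and CL in either genotype, in log2 CPM, with trimmed mean and SE (n = 6) beside them; axes differ between panels and the dashed line parts the separately scaled tables. Bcl2 is the only gene of the 7 that is lower in PI, and Pmaip1 in PI KO has the widest spread.

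**Figure D3:**
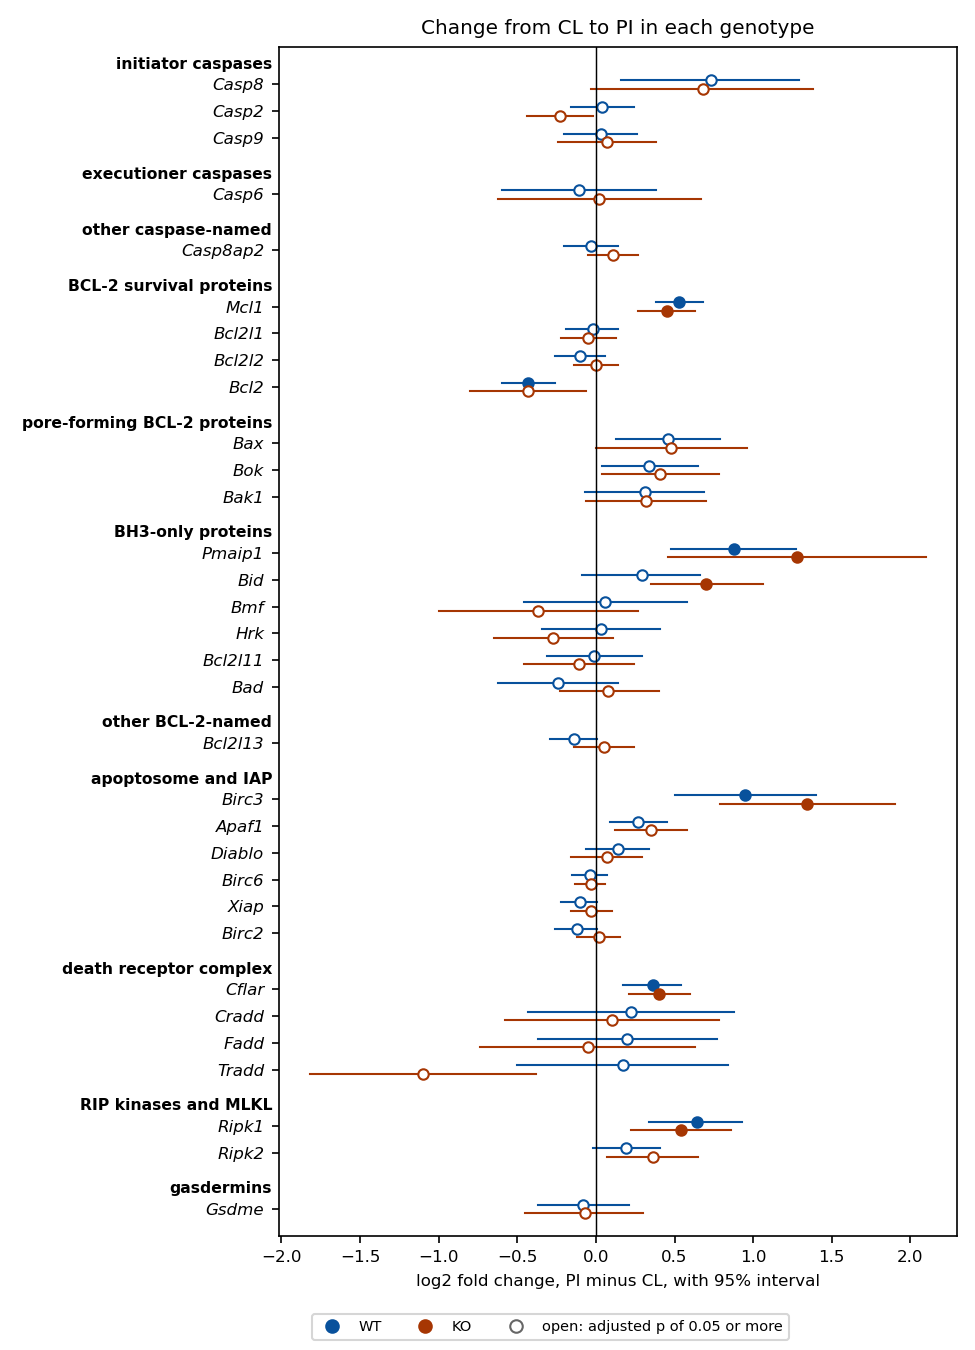
Log2 fold change of PI minus CL for 32 of the 34 members in WT and KO, by role, with 95% intervals; filled points were called. The called rises, Birc3 at 0.95 and 1.34 among them, fall in several roles, and Tradd lies at 0.17 in WT and -1.10 in KO.

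Markers of microglia, neurons and astrocytes included called genes in both genotypes, and those of endothelium and pericytes in neither. Microglia markers were listed in full (11 of 11), with 7 called higher and 1, P2ry12, called lower in each genotype. Summed levels in this paragraph are ranges over libraries of the deposited values, drawn in gene by gene, so their spread is too small. A sum follows its most abundant genes and need not hold for each marker. Of 8 neuron markers 3 were higher in PI in WT and 1 in KO, and of 5 astrocyte markers 2 in each genotype. The microglia sum was 191 to 203 CPM in CL WT and 223 to 249 in PI WT, while in KO it was 203 to 220 in CL and 247 to 296 in PI. The 8 neuron markers summed to 6351 to 6860 CPM in CL WT and 5381 to 6001 in PI WT, with Snap25, Syt1 and Nefl called lower in both genotypes and Gad2 called higher in KO. In KO the sums were 6351 to 6610 in CL and 5212 to 5774 in PI. The 5 astrocyte markers, with 1 called higher and 2 called lower in WT, summed to 7207 to 7602 CPM in CL WT and 6224 to 6626 in PI WT. In KO, with 1 called higher and 1 lower, their sums were 7223 to 7724 in CL and 6051 to 6735 in PI. The 5 oligodendrocyte markers, 1 of them called lower in WT, summed to 1718 to 1870 CPM in CL WT and 1182 to 1679 in PI WT. In KO none of them was called, and their sums overlapped at 1387 to 1941 in CL and 1319 to 1507 in PI. Endothelial markers (6 of 6 listed, none called) summed to 38.8 to 61.6 CPM in CL WT and 48.1 to 78.8 in PI WT. In KO their range was 45.6 to 58.7 for CL against 57 to 66.9 for PI, so that groups overlapped in both genotypes. The 3 pericyte markers, none called, overlapped too, with sums from 68.7 to 94.9 CPM (CL WT) against 65.4 to 82.6 (PI WT) and from 70.7 to 86.5 (CL KO) against 76.6 to 83.2 (PI KO). None of 10 neutrophil and monocyte markers and none of 5 T cell markers was listed in the tables of PI and CL. In the table of PI KO and PI WT, S100a8 and S100a9 were listed and summed to 2.2 to 4.12 CPM in PI WT and 3.39 to 9.32 in PI KO, with neither called. The part of these cell types in the changes of Mcl1, Birc3, Cflar, Ripk1, Pmaip1, Bid and Bcl2 was not tested.

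Of 40 other genes of the same pathways, 32 were listed in the tables of PI and CL, of which 2 (6.25%) were called higher in WT and 3 (9.38%) in KO, with none called lower. These shares were under the 10.6% and 10.0% of all genes called in either direction, and above the 5.20% and 5.11% called higher. Tnfrsf1a, the main receptor of TNF and the partner of TRADD and RIPK1, rose by 1.85 in WT (SE 0.16, adjusted p = 3.32e-05) and by 1.96 in KO (SE 0.21, adjusted p = 0.000174). Naip2, a sensor of the inflammasome, rose by 0.97 (SE 0.28, adjusted p = 0.0447) and by 1.14 (SE 0.27, adjusted p = 0.0175). Pycard (ASC), the inflammasome adaptor, rose by 1.92 in KO (SE 0.32, adjusted p = 0.00246) and had 1.09 in WT (SE 0.34, adjusted p = 0.0595). The median log2 fold change of the list was 0.06 in WT and 0.17 in KO. Between the genotypes 0 of the listed genes were called.

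The comparison of KO with WT asked whether loss of ciRS-7 altered these genes in either cortex sample. By the trimmed-mean test 0 of 34 members were called in PI, where 0.0208% of all 14452 genes were, and 0 of 34 in CL, where 0.0279% of 14323 were. Before adjustment 3 members in PI (8.82%, against 5.75% of all genes) and 1 in CL (2.94%, against 5.73%) had p under 0.05. Inner values of the groups did not overlap in 4 members in PI, against 8.97% of all genes, and in 2 in CL, against 8.67%. Limma on the deposited values, whose spread is too small, called 6 members in PI (17.6%, against 16.5% of all genes) and 4 in CL (11.8%, against 16.1%), shares near or under the background. The 95% interval of the difference lay within 0.5 of 0 on the log2 scale for 21 members in PI and 19 in CL, and within 1 for 32 and 33. The narrowest intervals were those of Birc6, with a half-width of 0.12 in PI and 0.09 in CL, and the widest in PI was that of Pmaip1 (0.83).

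In PI the smallest p-values belonged to Tradd, Casp2 and Bcl2l1. Tradd ran from 1.55 to 2.20 CPM in PI WT (median 1.68) and from 0.779 to 1.22 in PI KO (median 0.919), a log2 fold change of -0.90 (SE 0.36, adjusted p = 0.854). Casp2 ran from 22.3 to 23.7 CPM in PI WT (median 23.4) and from 19.2 to 20.9 in PI KO (median 20.5), at -0.20 (SE 0.08, adjusted p = 0.854). Bcl2l1 ran from 44.6 to 50.5 CPM in PI WT (median 47.1) and from 40.5 to 44.5 in PI KO (median 41.8), at -0.17 (SE 0.08, adjusted p = 0.854). The inner values of these 3 genes did not overlap between genotypes, and none passed over all genes. In CL the smallest p was that of Bid, which ran from 6.18 to 7.45 CPM in CL WT (median 7.04) and from 4.64 to 5.48 in CL KO (median 5.16), at -0.44 (SE 0.14, adjusted p = 0.712). Bcl2l1 in CL had -0.14 (SE 0.08, adjusted p = 0.882) and Pmaip1 had -0.33 (SE 0.19, adjusted p = 0.89). In CL 23 of 34 members were lower in KO, with a median of -0.04, and in PI 16 were lower, with a median of 0.00. Over all genes 7269 of 14323 were lower in CL and 7443 of 14452 in PI, each with a median of 0.00.

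**Figure D4:**
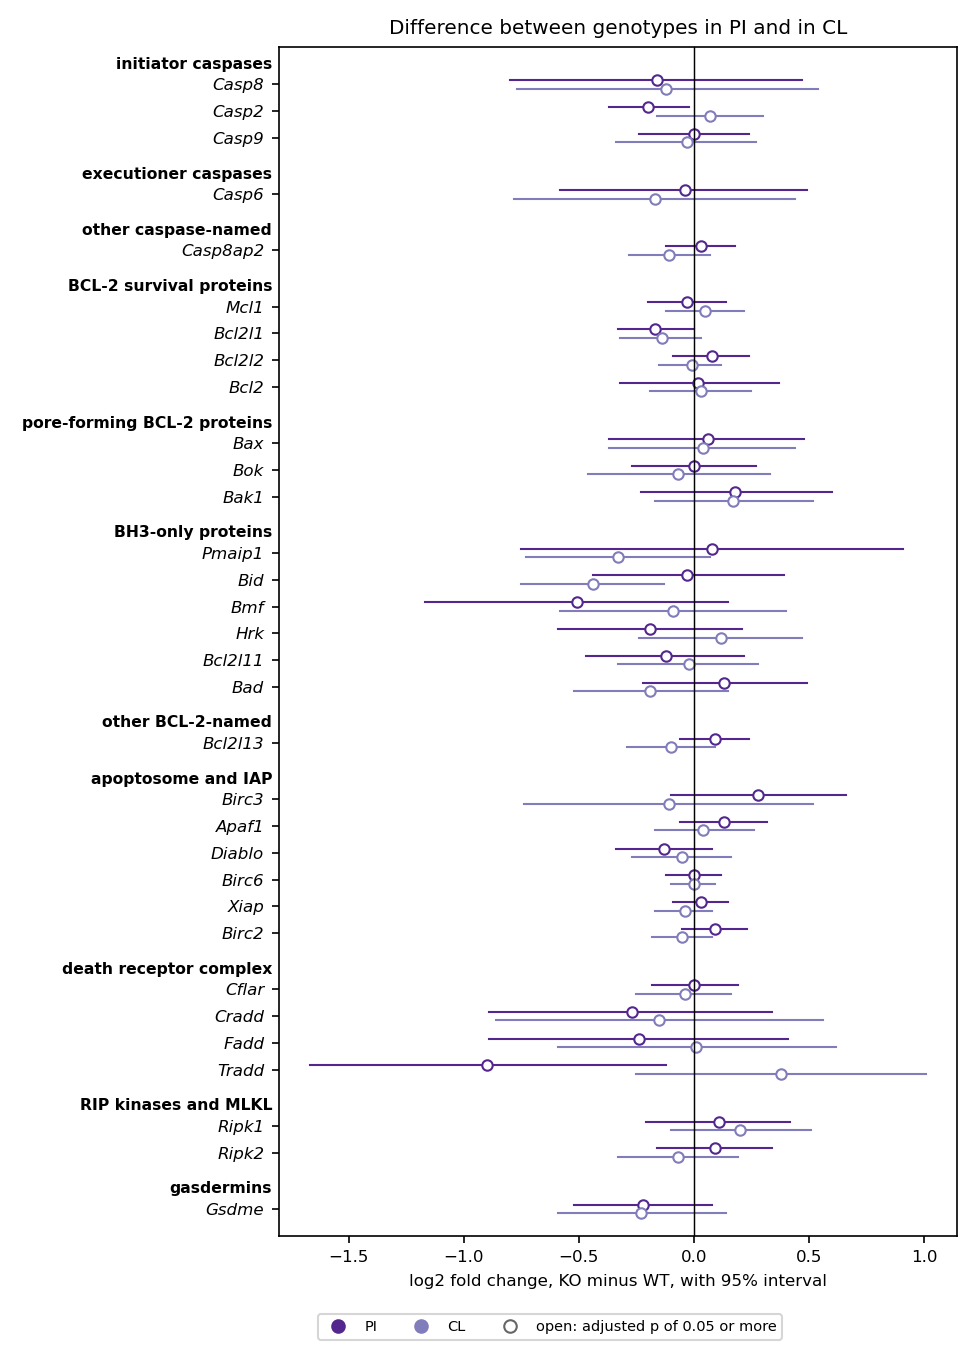
Log2 fold change of KO minus WT for 32 of the 34 members in PI and in CL, by role, with 95% intervals; no point is filled because no member was called. Tradd in PI (-0.90) lies farthest from 0, and Birc6 has the narrowest intervals.

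Members with a miR-7 site were described in the same comparisons. In PI, the 3 genes with an 8mer had log2 fold changes of KO minus WT from -0.12 to 0.02 (median 0.00), and in CL from -0.03 to 0.03 (median -0.02). Bcl2 had 0.02 in PI (95% interval -0.32 to 0.37) and 0.03 in CL (-0.19 to 0.25). Bcl2l11 had -0.12 (-0.47 to 0.22) and -0.02 (-0.33 to 0.28), and Casp9 had 0.00 (-0.24 to 0.24) and -0.03 (-0.34 to 0.27). The 15 members with any site had a median of 0.00 in PI and -0.03 in CL, beside 0.03 and -0.07 for the 19 with none. Over all genes tested, those with an 8mer had a median of -0.01 in both. These intervals bound the difference at each gene but do not show that the genotypes were alike.

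The PI minus CL change of KO was then set against that of WT, as the difference of the 2 changes. By the trimmed-mean test 0 of 34 members were called, as were 0 of 14211 genes (0%), while p before adjustment was under 0.05 for 1 member (2.94%) and for 4.55% of all genes. Limma, applied to the deposited values, called 5 members (14.7%, against 13.7% of all genes), a share near the background. Tradd had the smallest p, with a difference of -1.27 (SE 0.42, 95% interval -2.16 to -0.38, unadjusted p = 0.00733, adjusted p = 0.992). Casp2 followed at -0.27 (SE 0.13, adjusted p = 0.992) and Bid at 0.42 (SE 0.24, adjusted p = 0.992). For Mcl1 the 95% interval of the difference was -0.31 to 0.15, for Cflar -0.21 to 0.31 and for Ripk1 -0.51 to 0.32, and for Birc3 and Pmaip1 it was wider, -0.30 to 1.07 and -0.55 to 1.35.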

How the data were processed

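The deposited values are log2 CPM, per the file headers and names, in 4 tables of 2 groups each, and the genome build is mm10, per the submitters' processing notes. The aligner, the counting, its strand and the scaling are not given in the sources used here. Samples were grouped by title. The members and gene lists were chosen with earlier results of these data known.

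In 100% of genes the outer 2 values on each side of a group were tied at its quartiles, so the deposited spread is too small. From the ties the 4 inner values were solved. Separately, depth was read from low values that were not tied, as the step that made most of them whole reads. At that step 78.4% to 90.8% of them were whole (within 0.03 read), which does not test the solving. A moderated trimmed-mean test (mean of the inner values, Winsorized error, limma 3.58.1 in R 4.3.3 with a trend, two-sided, Benjamini-Hochberg over all genes of a table) was used. It was also run on simulated independent libraries with the same spread in both groups. That run is not reported here and does not cover paired libraries. Alternatives were no trend, centring, a pseudocount of 0.5 CPM, a filter at 1 CPM, limma on deposited values, the replicate block, and 2 libraries left out.

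CL and PI libraries are paired by the animal that the labels give for both. Same-animal deviations correlated at -0.0422 to 0.248 in WT and -0.0431 to 0.233 in KO. Medians of the correlations with other animals ran from -0.0821 to 0.0402 in WT and from -0.0891 to 0.0356 in KO. Counts of single animals per direction are not given, since deposited values lie within the inner values, and where those do not overlap all 6 pairs must point 1 way. The trimmed-mean test takes no block, so the block was fitted with limma on the deposited values.

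Genes were named by rule: each called member, per role the smallest p and highest level, and the 3 smallest p between genotypes; Casp9 and Bcl2l11 were added for their miR-7 sites, and Birc2, Birc6, Bak1 and others for comparison. Symbols were matched to GENCODE M21. Tables were handled with pandas 2.3.3 and plots drawn with matplotlib 3.10.9. All counts are over the 34 members, of which 2 are not reported here singly.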

Additional observations from a re-analysis of the deposited data

How the results depend on the processing

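The number of members called stayed within 1.5 times for no trend, centring, pseudocount and filter. Limma on the deposited values, whose drawn-in spread is too small, called 19 members in PI WT against CL WT, 19 in PI KO against CL KO, 6 in PI KO against PI WT, 4 in CL KO against CL WT and 5 for the difference between genotypes. With the replicate block the counts were 19, 18, 4, 3 and 4. Without PI WT replicate 4 they ranged over 19 in WT, 5 between genotypes in PI and 3 for the difference, and without CL KO replicate 6 over 17 in KO, 4 in CL and 3 for the difference. These 2 libraries were chosen after seeing the data. The values of the remaining libraries stayed drawn in to quartiles set with these 2 included, so leaving them out does not fully remove their influence.

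Over all genes, no trend gave 1015 calls in WT and 739 in KO. Limma on the deposited values gave 6459, 6666, 2388, 2311 and 1940 in the same order, and the replicate block 6614, 6759, 1800, 1868 and 1895. Without PI WT replicate 4 the counts were 6071, 1632 and 1397, and without CL KO replicate 6 they were 6311, 1779 and 1533. The difference between genotypes for Bcl2 turned to 0.01 without PI WT replicate 4. Centring on the median gene lowered the higher calls, as a share of all calls, from 49.1% to 37.7% in WT and from 50.8% to 36.7% in KO. Depth limits members at low levels, among them Tradd, Casp8, Fadd, Cradd, Bmf and Birc3. Birc3 had about 14.9 reads at the median depth in CL WT and 14.4 in CL KO. KO and WT animals share only replicate numbers.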

Other observations

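The 4 symbols listed in some tables were also measured. Casp12, an inflammatory caspase of the endoplasmic reticulum in mice, stood at 0.865 to 1.70 CPM in CL WT (median 1.16) and 1.84 to 2.68 in PI WT (median 2.16), with a log2 fold change of 0.88 (SE 0.34, adjusted p = 0.131). In KO it had 1.09 (SE 0.39, adjusted p = 0.103). Fas, a death receptor, had 0.94 in WT (SE 0.33, adjusted p = 0.0975), with groups that did not overlap, and 0.70 in KO (SE 0.51, adjusted p = 0.434). Casp1, the caspase of the inflammasome, had 0.05 in WT (SE 0.32, adjusted p = 0.953). Bcl2a1b, a survival gene of the BCL-2 family that has near-identical copies, had inner values of 2.96 to 5.18 CPM in PI KO (median 3.99), while in CL KO the highest inner value was 0.88 CPM. Its reads are uncertain, and the change was not called (adjusted p = 0.0933). These 4 are not counted with the 34.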
